A study of Mus musculus with 12 samples.

Results

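The Wnt pathway was followed through 44 genes in mouse 3T3-L1 fibroblasts, which become fat cells when given adipogenic hormones. The genes were chosen by name, with earlier results of these data known. They are 10 Wnt ligands, the ligand-modifying enzyme Porcn, 8 Frizzled receptors, 4 co-receptors, 2 R-spondins, 6 secreted inhibitors, 2 receptor ubiquitin ligases, 6 cytoplasmic inhibitors and 5 nuclear effectors. All 44 were found among the 55487 gene rows of the RNA-seq table, each on 1 row. The cells had been infected with lentivirus that carried either a scrambled hairpin (shScram) as control or one that targets the RNA demethylase Fto (shFTO), and were selected with puromycin. The sources used here do not say which of the study's Fto hairpins was sequenced, or whether a line came from 1 clone. Cells were collected as growth-arrested preadipocytes (Pre), during mitotic clonal expansion (MCE), when induced cells divide again, and once differentiated (Diff). Both later stages followed induction with IBMX, dexamethasone and insulin in both lines, and no group analysed here received rhein. Each of the 6 groups had 2 libraries, which the labels do not describe as separate cultures, so p-values measure only the spread between these libraries.

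Wnt ligands are lipid-modified secreted proteins that bind Frizzled receptors together with Lrp5 or Lrp6, and the signal stops the Axin, Apc and Gsk3b complex from marking β-catenin for degradation. β-catenin then binds the Tcf and Lef factors in the nucleus. In preadipocytes this branch is known to hold back adipogenesis, and Wnt10b, Wnt10a and Wnt6 are the ligands best known for it. Other ligands such as Wnt5a mainly act through Ror receptors without β-catenin. Secreted Sfrp proteins, some Dkk proteins and Wif1 block ligands or co-receptors, while R-spondins protect Frizzleds from the ubiquitin ligases Znrf3 and Rnf43.

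Values are TPM, the length-corrected share of all transcripts set to 1 total per library, so that levels can be compared between genes but the sequencing depth behind them is unknown. Log2 fold changes are of TPM + 1, so that for genes with low TPM they come out too small. Genes with at least 1 TPM in at least 2 of the 12 libraries were tested with limma, and a gene was called when its p after Benjamini-Hochberg adjustment over all 15968 genes tested was under 0.05. Of the 44 Wnt genes, 28 passed this filter. In the text a log2 fold change is given with its SE from the fit. Each call was recomputed under 20 alternatives, 8 other settings of the fit and the 12 fits that leave out 1 library each, and a member's call that was made in fewer than 16 of them is given with that number. Many of the 20 cannot move a given fold change and alter only its spread or its adjustment. They are the fits with no filter, without the trend, with a replicate block or on only the libraries compared, and those that leave out a library of a group not compared. A call made in 16 of them can thus have been lost without each compared library in turn. "Not called" refers to the fit on all 12 libraries unless an alternative is named.

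The knockdown was visible in every library. Fto stood at 52.7 and 58.3 TPM in shScram preadipocytes, 59.1 and 55.7 TPM at MCE and 73.5 and 70.8 TPM at Diff. The shFTO libraries held 5.51 and 5.55, 6.32 and 6.03, and 7.47 and 7.05 TPM at the same stages, between 9.96% and 10.8% of the shScram means. Replicate 1 of shScram at Diff is titled shScram, while its treatment entry names the knockdown; it was placed by its title, and its 73.5 TPM of Fto lay with the shScram libraries.

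A pair of libraries stood apart. Across genes, log2(TPM + 1) correlated at r = 0.939 between the shScram preadipocyte libraries and at 0.990 to 0.993 between those of the other groups, with each pair sharing its group and its gene lengths. Replicate 2 of the shScram preadipocytes correlated more closely with replicate 2 of the shFTO preadipocytes, at r = 0.968, while replicate 1 reached at most 0.903 with a library of another group. Among the 28 tested Wnt genes, the TPM of 5 differed over 2-fold between the shScram preadipocyte libraries and that of 0 between the shFTO ones. Fzd2 differed most, at 7.32 and 68.2 TPM, and Porcn, Fzd8, Lrp5 and Wnt10b were also lower in replicate 1. The log2 difference of replicate 1 from replicate 2 fell with the GC content of the exons over these 28 genes (Spearman's rho -0.686, as a description). Over all genes tested it was -0.711 in this pair, and between -0.213 and 0.371 in the pairs of the other groups. Fold changes of named genes that rest on this group are given with and without replicate 1.

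The cells carried the markers of their stage unequally in the 2 lines. Adipoq, the adipokine adiponectin, was listed at 0 in all preadipocytes and reached 77.2 and 72.4 TPM in shScram cells at Diff against 6.05 and 3.66 TPM in shFTO cells. Fabp4, a fatty acid carrier of adipocytes, stood there at 876 and 836 TPM against 138 and 118 TPM, and Pparg, the master regulator of adipogenesis, at 40.3 and 44.6 TPM against 17.7 and 16.9 TPM. Of the 9 preadipocyte markers, all tested, 3 were higher in shFTO cells at Diff and 1 lower. Ly6a, a surface antigen of stromal progenitors, stood there at 135 and 114 TPM in shScram against 793 and 820 TPM in shFTO cells. Col3a1, a fibrillar collagen, and the surface protein Thy1 were also higher, and the intermediate filament gene Vim was lower, at 4155 and 4072 TPM against 2094 and 2238 TPM. Dlk1, a preadipocyte factor, was not called at that stage, and it held between 431 and 1284 TPM in all 12 libraries, with the lowest values in shFTO cells at MCE. The 9 markers, with Vim the most abundant, summed to between 6686 and 10245 TPM per library. The 10 adipocyte markers summed to 1598 and 1584 TPM in shScram cells at Diff and to 483 and 447 TPM in shFTO cells, with Fabp4 the most abundant of them in shScram cells and Lpl, the lipase that frees fatty acids, in shFTO cells at that stage. Of the 9 that could be tested, 7 were lower in shFTO cells at that stage and 0 higher. In bulk RNA, fewer cells of a type and less RNA per cell cannot be told apart, and the part of these markers in the differences of the Wnt genes was not tested. The markers of other cells were low but not all at 0. The 4 macrophage markers summed to between 0.515 and 4.01 TPM per library, with Cd68 the most abundant, and Adgre1 was listed at 0 in every library. Cd68 passed the filter and was lower at MCE than in preadipocytes in both lines. The 3 endothelial markers summed to at most 0.651 TPM, with Pecam1 above 0 and Kdr at 0 in every library, and the 3 muscle markers to at most 0.0948 TPM, with Myod1 at 0. The 5 proliferation markers differed between the lines too, and at Diff they summed to 154 and 145 TPM in shScram against 234 and 257 TPM in shFTO cells, with 4 of them called higher in shFTO cells. The part of these markers in the Wnt differences at that stage was not tested.

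**Figure D1:**
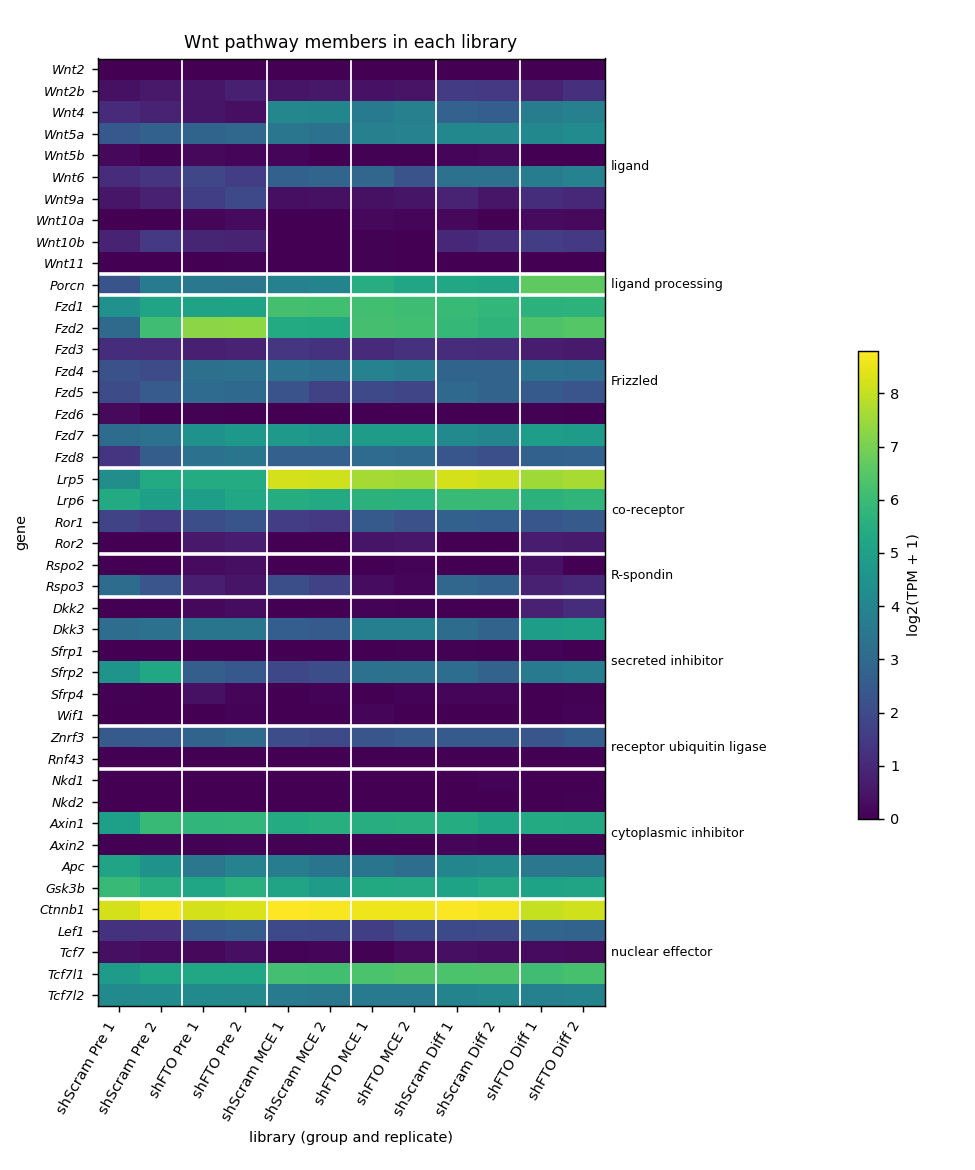
Level of each of the 44 Wnt pathway genes as log2(TPM + 1), in colour, with genes in rows by role and the 12 libraries in columns by group and replicate. Ctnnb1, Lrp5, Fzd2 and Tcf7l1 are the brightest rows, while 16 genes that did not pass the filter stay near 0.

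The pathway was not transcribed evenly. Ctnnb1, which encodes β-catenin, was the most abundant member in each of the 6 groups. Averaged over the 12 libraries it stood at 357 TPM, followed by the co-receptor Lrp5 at 171 TPM, the receptor Fzd2 at 73.7 TPM and Tcf7l1, a Tcf factor that mostly represses, at 61.7 TPM. The order below Ctnnb1 differed between stages: Lrp5 came second in both lines at MCE and Diff but averaged 30.0 and 41.4 TPM in shScram and shFTO preadipocytes. Ligands were scarce beside them. Averaged in the same way, Wnt5a led at 11.3 TPM, with Wnt4 at 7.88 and Wnt6 at 6.08 TPM, while in shScram cells at MCE Wnt4 stood above Wnt5a. The 16 genes below the filter were Wnt2, Wnt5b, Wnt10a, Wnt11, Fzd6, Ror2, Rspo2, Dkk2, Sfrp1, Sfrp4, Wif1, Rnf43, Nkd1, Nkd2, Axin2 and Tcf7. Wnt2 and Rnf43 were listed at 0 in all 12 libraries. Genes often used to read the pathway are among the low ones. Wnt10a did not exceed 0.205 TPM, Sfrp1 did not exceed 0.0526 TPM, and Axin2, a feedback inhibitor widely read as a target of β-catenin, did not exceed 0.0918 TPM. For these no fold change is given.

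A promoter sequence search gave few matches. Of the 27 members with a window in the RefSeq promoter table (GRCm38.p6, 250 bases before to 50 bases after a start), 2 held the core letters CTTTGAA or CTTTGAT of Tcf and Lef sites on either strand, 7.41% of those members against 9.88% of all 27025 genes in that table. Both matches are in genes of ligands whose RNA lay below the filter, and they are shown so that the letters can be read in place, with the matched letters in capitals.
Wnt5b: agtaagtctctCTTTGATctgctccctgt
Wnt11: gacgtgggcggATCAAAGcgacggtccgc
The Wnt5b stretch is chr6:119449440-119449468 on the minus strand and the Wnt11 stretch is chr7:98835050-98835078 on the plus strand, where the letters stand in reverse complement. Wnt5b did not exceed 0.149 TPM and Wnt11 did not exceed 0.0391 TPM in any library. A match of letters is a description and not a measured site.

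The first question was how the Wnt genes differed between shFTO and shScram cells at each stage. In preadipocytes 11 of the 28 tested members were called, 7 higher and 4 lower in shFTO cells, beside 28.2% of all genes tested, 15.9% higher and 12.3% lower. At MCE 6 were called, 5 higher and 1 lower, beside 17.8% of all genes, 10.5% higher and 7.26% lower. At Diff 7 were called, 5 higher and 2 lower, beside 21.2% of all genes, 11.9% higher and 9.31% lower. At each stage the members' share lay somewhat above that of all genes, and no test of that difference was made. Because the list was made with earlier results of these data known, that difference is not read as a result about the pathway. The members' median log2 fold change was 0.31, 0.06 and -0.005 at the successive stages, against 0.08, 0.05 and 0.03 over all genes. The first of these rested on the pair that stood apart. Without replicate 1 of shScram the members' median in preadipocytes lay between Wnt2b at 0.04 and Tcf7l1 at 0.08, against 0.0 over all genes. Rspo3 was the member called in the same direction at all 3 stages, a pattern that 3.41% of all genes had with higher and 1.99% with lower values in shFTO cells. Leaving out replicate 1 of the shScram preadipocytes, so that the difference of that pair no longer enters the spread shared by all comparisons, gave 11 calls in preadipocytes, 9 of them shared, with Fzd5 and Wnt4 lost and Ctnnb1 and Ror1 gained. It gave 11 at MCE and 15 at Diff, and the earlier 6 and 7 were among them. Leaving out replicate 2 instead gave 19 in preadipocytes, the earlier 11 among them, and again 11 and 15. Without replicate 1 of either line at Diff, that stage had 4 calls, Rspo3, Dkk3, Wnt4 and Fzd7, and without replicate 2 of either line it had 5. With only the 4 libraries of each stage in the fit, 0 members were called in preadipocytes, where 9 had an unadjusted p under 0.05, and 12 and 15 were called at the later stages. Here and below, shares of all genes belong to the fit on all 12 libraries. None is given for fits on fewer libraries, so a higher or lower count in those is not read as a result about the members.

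**Figure D2:**
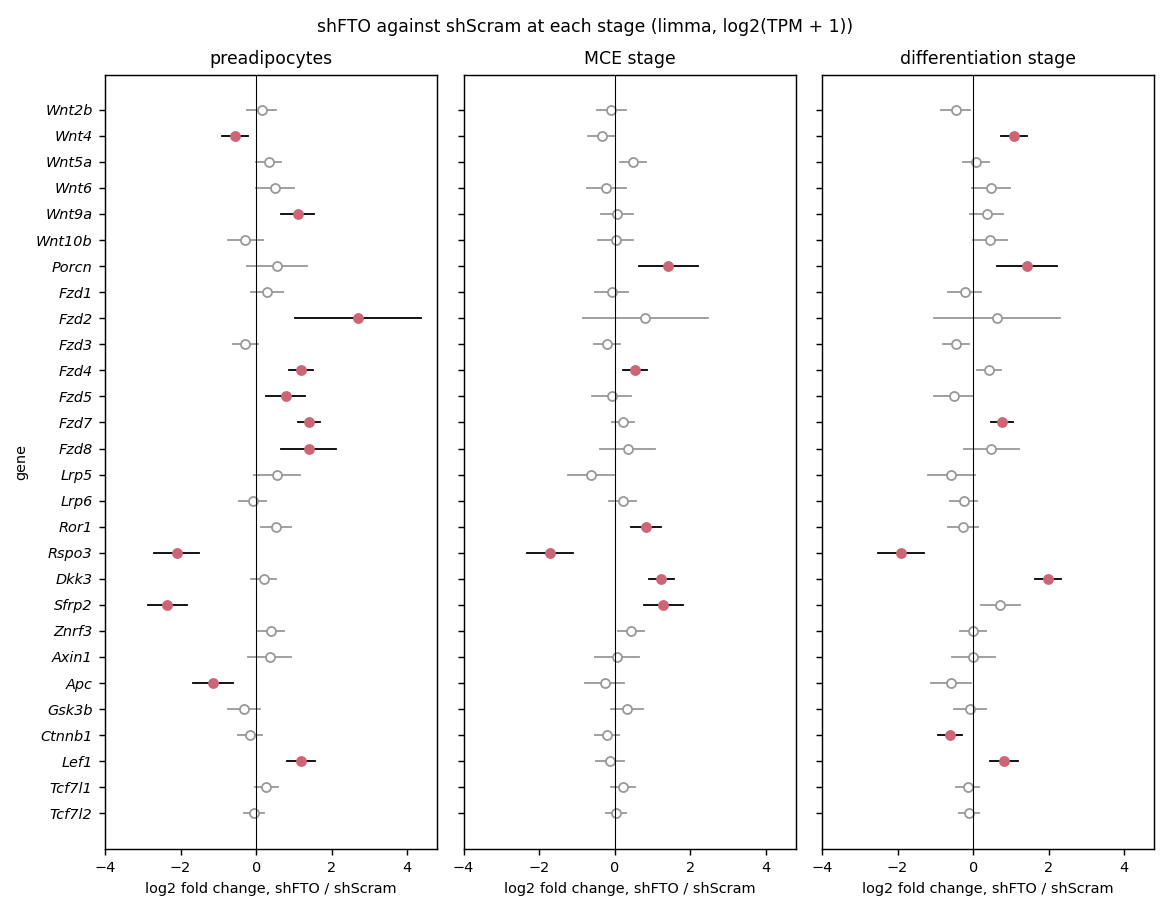
Log2 fold change of shFTO over shScram on the log2(TPM + 1) scale (x axis) for the 28 tested members (y axis, ordered by role) at each stage, with lines for 95% confidence intervals. Filled points are called at an adjusted p under 0.05 (limma): 11 in preadipocytes, 6 at MCE and 7 at Diff, with Rspo3 on the left and filled in all 3 panels.

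Rspo3, the R-spondin of these cells, was lower in shFTO cells throughout. The gene (ENSMUSG00000019880) lies on chromosome 10 of GRCm38 from 29452416 to 29535867 on the minus strand, with Gm20276 overlapping on the same strand. Preadipocytes held 7.63 and 3.97 TPM in shScram against 0.650 and 0.402 TPM in shFTO cells. At MCE the values were 3.36 and 2.33 TPM against 0.239 and 0.0926 TPM, and at Diff 6.49 and 5.64 TPM against 0.763 and 0.979 TPM. Every shFTO library lay below every shScram library, at means of 9.07%, 5.83% and 14.4% of the shScram means. The log2 fold changes were -2.11 ± 0.26, -1.71 ± 0.26 and -1.92 ± 0.26, with limma adjusted p = 0.00124, 0.00266 and 0.0012. Without replicate 1 of the shScram preadipocytes the first of these was -1.71, with limma adjusted p = 0.000684. A smaller pseudocount of 0.1 gave -3.19, -3.50 and -2.67. Rspo2, the other R-spondin on the list, was listed at 0 in all 6 shScram libraries and reached at most 0.349 TPM in shFTO cells.

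Among the secreted inhibitors, Sfrp2 and Dkk3 passed the filter and moved in different ways. Sfrp2 (ENSMUSG00000027996), which binds Wnt ligands, lies on chromosome 3 from 83766321 to 83774316 and overlaps Gm26771 on the opposite strand. It stood at 22.7 and 36.4 TPM in shScram preadipocytes and at 5.27 and 4.37 TPM in shFTO preadipocytes. At MCE the order turned, with 2.76 and 3.36 TPM in shScram against 9.02 and 8.69 TPM in shFTO cells, and it stayed so at Diff, with 7.95 and 6.01 TPM against 11.4 and 12.6 TPM. The groups did not overlap at any stage. The log2 fold change was -2.36 ± 0.23 in preadipocytes (limma adjusted p = 0.000343) and -2.69 there without replicate 1 of shScram, 1.28 ± 0.23 at MCE (limma adjusted p = 0.00515) and 0.71 ± 0.23 at Diff (limma adjusted p = 0.0552). The last was called under both scalings.

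Dkk3 (ENSMUSG00000030772), a divergent member of the Dickkopf family, lies on chromosome 7 from 112116017 to 112159057. It is listed with the secreted inhibitors by family, and its action on Wnt signals was not tested. In preadipocytes the lines were close, at 7.86 and 8.79 TPM in shScram against 9.80 and 9.57 TPM in shFTO cells, a log2 difference of 0.20 ± 0.15 that was not called (0.13 without replicate 1 of shScram). The gap opened at MCE, with 5.16 and 4.63 TPM against 12.9 and 12.8 TPM, and was wider at Diff, with 7.71 and 5.98 TPM against 28.9 and 30.8 TPM. These are log2 fold changes of 1.23 ± 0.15 (limma adjusted p = 0.000669) and 1.98 ± 0.15 (limma adjusted p = 3.64e-05), or ratios of the mean TPM of 2.62 and 4.36. Dkk2 was listed at 0 in all 6 shScram libraries and above 0 in all 6 shFTO libraries, with 0.736 and 1.21 TPM at Diff. Ror2, a receptor of Wnt5a, was likewise listed at 0 in all shScram libraries and held 0.400 to 0.619 TPM in the shFTO ones. Over all rows, 34 genes had this pattern, 0.0613% of the rows, and 19 had the opposite one, none of them a member. Both genes were below the filter. With no filter, Ror2 was called at all 3 stages and Dkk2 at Diff, and so was Axin2 at Diff, which stood at 0.0918 and 0.0712 TPM in shScram and was listed at 0 in both shFTO libraries. Sfrp4 and Wif1 reached at most 0.314 and 0.0960 TPM.

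**Figure D3:**
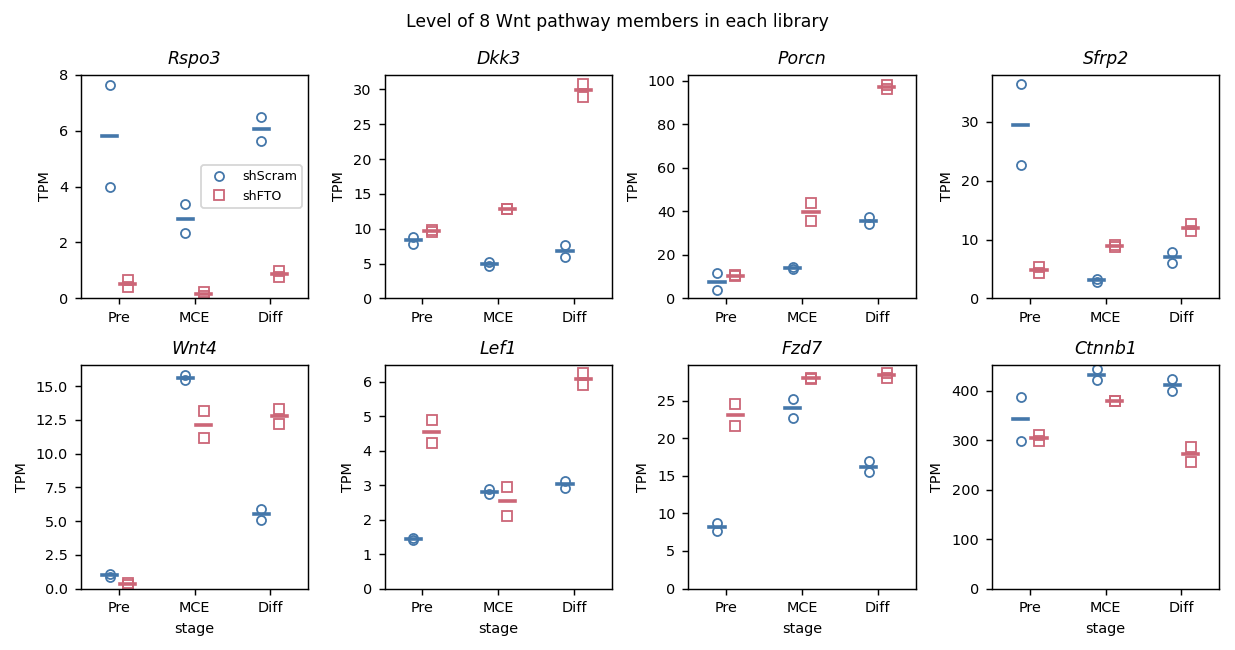
TPM (y axis, linear from 0) of 8 members at the 3 stages (x axis), with circles for shScram and squares for shFTO libraries and bars at the mean of the 2 libraries. Rspo3 is lower and, from MCE on, Dkk3 and Porcn are higher in both shFTO libraries, while Sfrp2 changes its order between preadipocytes (22.7 and 36.4 TPM in shScram) and the MCE stage (2.76 and 3.36 TPM).

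Porcn, the acyltransferase that adds the lipid which Wnt ligands need for secretion and receptor binding, was the processing gene on the list. Its gene (ENSMUSG00000031169) lies on chromosome X from 8193848 to 8206525. Preadipocytes held 3.83 and 11.5 TPM in shScram against 10.5 and 10.3 TPM in shFTO cells, so the groups overlapped. At MCE shScram libraries held 13.7 and 14.6 TPM and shFTO libraries 43.8 and 35.7 TPM. At Diff they held 37.2 and 34.2 TPM against 96.4 and 98.1 TPM. The later differences were each 1.42 ± 0.35 on the log2 scale, with limma adjusted p = 0.0227 and 0.0199. Each call was made in 15 of the 20 alternatives. It was lost with no filter, at MCE without any one of the 4 MCE libraries and at Diff without any one of the 4 Diff libraries, with an adjusted p (limma) of up to 0.146 and 0.110. The spread of the shScram preadipocyte pair enters these SEs, and without its replicate 1 the adjusted p (limma) was 3.45e-06 at MCE and 3.27e-06 at Diff.

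Of the 10 ligands 6 were tested, and 2 of these were called between the lines in preadipocytes and 1 at Diff, beside 28.2% and 21.2% of all genes. At MCE 0 were called (limma), beside 17.8% of all genes, 1 had an unadjusted p under 0.05, and the fit on that stage's libraries alone called Wnt5a. Wnt4 (ENSMUSG00000036856), which can signal with or without β-catenin, lies on chromosome 4 from 137277489 to 137299726. It was low in preadipocytes, at 1.10 and 0.841 TPM in shScram against 0.399 and 0.275 TPM in shFTO cells, with a log2 fold change of -0.56 ± 0.15 (limma adjusted p = 0.0292) that was -0.46 with limma adjusted p = 0.0679 without replicate 1 of shScram. At MCE it stood at 15.8 and 15.4 TPM against 11.1 and 13.1 TPM and was not called. At Diff the shFTO libraries were higher, at 12.2 and 13.3 TPM against 5.86 and 5.11 TPM, a log2 fold change of 1.09 ± 0.15 (limma adjusted p = 0.00134). Wnt9a was higher in shFTO preadipocytes, at 2.09 and 2.81 TPM against 0.458 and 0.765 TPM, with a log2 fold change of 1.10 ± 0.19 (limma adjusted p = 0.00526) that was 0.96 without replicate 1 of shScram. With the GC correction it was 0.58 and not called (limma adjusted p = 0.0654).

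The ligands tied to the block of adipogenesis were not called between the lines at any stage with all 12 libraries in the fit. Under the alternatives, Wnt10b was called in preadipocytes with the GC correction, and Wnt6 in preadipocytes without replicate 2 of shScram and at Diff in the fit on that stage's libraries alone. Wnt10b was at 0.844 and 1.75 TPM in shScram against 0.892 and 0.783 TPM in shFTO preadipocytes, was listed at 0 in 3 of the 4 MCE libraries and at 0.0326 TPM in the other, and stood at 0.971 and 1.28 TPM against 2.01 and 1.76 TPM at Diff. Its difference at the last stage was 0.44 ± 0.20 on the log2 scale, with a 95% interval from -0.02 to 0.91. Wnt6 held 1.15 and 1.57 TPM against 2.66 and 2.03 TPM in preadipocytes, 5.71 and 6.25 TPM against 6.48 and 3.78 TPM at MCE, and 9.03 and 8.75 TPM against 11.8 and 13.8 TPM at Diff. Its groups overlapped at MCE only, and its 95% interval at Diff ran from -0.03 to 0.99. Wnt5a was slightly higher in shFTO libraries at each stage, at 6.11 and 6.89 TPM against 4.31 and 5.68 TPM, 13.3 and 13.8 TPM against 9.86 and 9.04 TPM, and 16.2 and 17.8 TPM against 16.04 and 15.98 TPM, with log2 differences of 0.33 (0.16 without replicate 1 of shScram), 0.48 and 0.08. The MCE difference had a limma adjusted p of 0.0591 and was called without either library of the shScram preadipocytes, and the gene overlaps Gm2670 on the opposite strand. Wnt10a, below the filter, was listed at 0 in all 4 shScram libraries of the first 2 stages, at 0.136 and 0 TPM in shScram at Diff, and between 0.0924 and 0.205 TPM in the 6 shFTO libraries.

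The Frizzled genes held the most calls of any role in preadipocytes: 5 of the 7 tested were higher in shFTO cells and 0 lower, beside 28.2% of all genes. The median log2 fold change was 1.18 over the 7 against 0.08 over all genes. Without replicate 1 of shScram the median over the 7 was the 0.77 of Fzd8, against 0.0 over all genes. Fzd7 rose from 7.68 and 8.76 TPM in shScram to 21.7 and 24.6 TPM in shFTO preadipocytes, a log2 fold change of 1.39 ± 0.13 (limma adjusted p = 0.000274). Fzd4 stood at 3.55 and 3.05 TPM against 8.57 and 8.90 TPM, with a log2 fold change of 1.18 ± 0.14 (limma adjusted p = 0.000919). These pairs were close within each group, and without replicate 1 of shScram the values were 1.30 and 1.27 and remained called. Fzd8 was at 1.59 and 5.06 TPM against 9.03 and 9.68 TPM, and Fzd2 at 7.32 and 68.2 TPM against 152 and 158 TPM, so their shScram libraries disagreed. Fzd2 had a log2 fold change of 2.70 ± 0.73 and Fzd8 one of 1.39 ± 0.32, and without replicate 1 these became 1.18 and 0.77 and remained called. Both calls were lost with no filter, in the fit on the libraries of that stage alone, and without one or the other library of the shFTO preadipocytes. Fzd5 was higher by 0.78 ± 0.22 (limma adjusted p = 0.0341) but was not called without that replicate, where the adjusted p (limma) was 0.108 for a log2 fold change of 0.52, and the call was made in 8 of the 20 alternatives.

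Summed over the 8 receptors, the Frizzled level was 45.6 and 125 TPM in shScram against 232 and 243 TPM in shFTO preadipocytes. The lines were nearer to each other at MCE, at 158 and 149 TPM against 194 and 185 TPM, and at Diff, at 154 and 140 TPM against 178 and 185 TPM, still without overlap. Averaged over all 12 libraries Fzd2 was the most abundant receptor, and in preadipocytes it made up most of the gap, while Fzd1 stood above it in shScram cells at MCE and Diff. At MCE Fzd4 was called, at 13.8 and 12.04 TPM in shFTO against 9.09 and 8.17 TPM in shScram cells, with a log2 fold change of 0.53 ± 0.14, but the call was made in 8 of the 20 alternatives and in neither scaling, with an adjusted p (limma) of up to 0.215. At Diff Fzd7 was called, at 28.7 and 28.0 TPM against 17.0 and 15.4 TPM, with a log2 fold change of 0.77 ± 0.13 (limma adjusted p = 0.00306). Fzd2 stood at 72.8 and 68.8 TPM against 40.2 and 39.5 TPM at MCE and was not called, with a 95% interval from -0.85 to 2.48, but it was among the calls at both later stages when replicate 1 of the shScram preadipocytes was left out. Fzd1 and Fzd3 were not called at any stage with all libraries. At Diff Fzd1 was called without either library of the shScram preadipocytes and with the GC correction, and Fzd3 with no filter and without the trend. Fzd6 did not exceed 0.169 TPM.

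Of the 3 co-receptors tested, 1 was called between the lines, at MCE, beside 17.8% of all genes. Ror1, a receptor tyrosine kinase bound by Wnt5a, was higher in shFTO cells at MCE, at 4.62 and 3.58 TPM against 2.02 and 1.73 TPM, with a log2 fold change of 0.82 ± 0.17 (limma adjusted p = 0.0122). Ror2 was the co-receptor listed at 0 in every shScram library. Lrp5 was not called in preadipocytes, and lay lower in shFTO libraries later, at 193 and 185 TPM against 298 and 284 TPM at MCE and at 184 and 197 TPM against 302 and 270 TPM at Diff. These log2 differences of -0.62 and -0.58 were not called, with limma adjusted p = 0.16 and 0.172, although the groups did not overlap; both were called when replicate 1 of the shScram preadipocytes, where Lrp5 stood at 19.2 TPM against 40.9 TPM in replicate 2, was left out. Lrp6 was not called at any stage, but was called at MCE and at Diff in the fits on those libraries alone. Znrf3, the ubiquitin ligase that removes Frizzleds, was not called either, apart from MCE without one or the other library of the shScram preadipocytes, with 4.61 and 4.93 TPM against 6.16 and 7.08 TPM in preadipocytes.

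Inside the cell, 1 of the 3 cytoplasmic inhibitors and 1 of the 4 nuclear effectors tested were called in preadipocytes, 0 and 0 at MCE (limma, none with an unadjusted p under 0.05) and 0 and 2 at Diff, beside 28.2%, 17.8% and 21.2% of all genes. Apc, the scaffold of the β-catenin destruction complex, was lower in shFTO preadipocytes, at 10.2 and 13.8 TPM against 34.0 and 21.7 TPM, with a log2 fold change of -1.14 ± 0.23 (limma adjusted p = 0.0101) that was -0.83 without replicate 1 of shScram. At Diff it held 10.2 and 10.5 TPM against 15.3 and 16.8 TPM and was not called. It was called there with the GC correction, in the fit on that stage's libraries alone and without either library of the shScram preadipocytes. Axin1 and Gsk3b were not called at any stage, apart from preadipocytes without replicate 2 of shScram. Ctnnb1 (ENSMUSG00000006932), on chromosome 9 from 120929216 to 120960507, held 299 and 388 TPM in shScram against 299 and 310 TPM in shFTO preadipocytes, which overlapped. It was at 444 and 422 TPM against 379 and 379 TPM at MCE and at 424 and 400 TPM against 257 and 286 TPM at Diff. The last difference was called, with a log2 fold change of -0.60 ± 0.14 (limma adjusted p = 0.0158), but not without any one of the 4 libraries of that stage, with an adjusted p (limma) of up to 0.114 in the alternatives. Ctnnb1 overlaps Ulk4 on the opposite strand, and whether strand was used in counting is not stated.

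Lef1, a factor that carries β-catenin to its targets, was the one Tcf or Lef gene called between the lines. Its gene (ENSMUSG00000027985) lies on chromosome 3 from 131110471 to 131224356. It stood at 1.46 and 1.41 TPM in shScram against 4.22 and 4.88 TPM in shFTO preadipocytes, at 2.88 and 2.74 TPM against 2.12 and 2.96 TPM at MCE, and at 2.92 and 3.13 TPM against 6.25 and 5.91 TPM at Diff. It was thus higher in shFTO cells at the outer stages and overlapped at MCE. The log2 fold changes were 1.19 ± 0.16 (limma adjusted p = 0.00178), or 1.20 without replicate 1 of the shScram preadipocytes, and 0.81 ± 0.16 (limma adjusted p = 0.00748), and the second was not called without replicate 1 of shScram or without replicate 1 of shFTO at that stage, with a limma adjusted p of up to 0.0556. Tcf7l2, a Tcf factor that carries β-catenin, was not called between the lines, at 17.1 and 17.9 TPM against 16.9 and 16.5 TPM in preadipocytes, 11.6 and 10.6 TPM against 11.7 and 11.1 TPM at MCE and 14.5 and 15.7 TPM against 13.7 and 14.3 TPM at Diff. Its 95% intervals stayed within -0.38 and 0.30 at all 3 stages. Tcf7l1 was not called with all libraries, but was called at MCE without either library of the shScram preadipocytes and in the fit on that stage's libraries alone, and in preadipocytes without replicate 2 of shScram. Tcf7 did not exceed 0.295 TPM.

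The second question was how the pathway changed between stages within each line. From preadipocytes to MCE 17 members were called in shScram cells, 9 higher and 8 lower, beside 39.1% of all genes (12.2% higher, 26.9% lower), and 16 in shFTO cells, 10 higher and 6 lower, beside 28.7% (8.80% higher, 19.9% lower). From MCE to Diff 14 were called in shScram cells, 11 higher and 3 lower, beside 25.2% (20.0% higher, 5.22% lower), and 10 in shFTO cells, 7 higher and 3 lower, beside 26.7% (20.2% higher, 6.48% lower). With 1 library left out the counts ran from 12 to 22 and, at the second step, from 4 to 19 in shScram cells, and from 8 to 21 and 4 to 16 in shFTO cells. The second step of shScram cells had 4 calls without replicate 1 of shScram at Diff and 4 without replicate 2 of shScram at MCE. That of shFTO cells had 4 without any one of the 4 shFTO libraries at MCE and Diff. The successive steps share the MCE libraries. The median of all genes was itself -0.17 and 0.23 in shScram and -0.18 and 0.17 in shFTO cells, and scaling the libraries by the median of ratios brought these medians to between -0.01 and 0.03. The members' medians were 0.24 and 0.41 in shScram and 0.20 and 0.14 in shFTO cells. Without replicate 1 of the shScram preadipocytes the first of these lay between Ror1 at -0.01 and Fzd8 at 0.10, against -0.24 over all genes. Some calls depended on the scaling: with quantile normalization 8 members were called in shScram cells at the second step, without Fzd5, Lrp6, Rspo3, Sfrp2, Tcf7l2, Wnt2b and Znrf3. These lost calls were all rises, with log2 fold changes from 0.41 for Tcf7l2 to 0.97 for Sfrp2. The falls of Fzd4 (-0.45) and Fzd7 (-0.54) remained called. Every called direction held under both scalings.

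**Figure D4:**
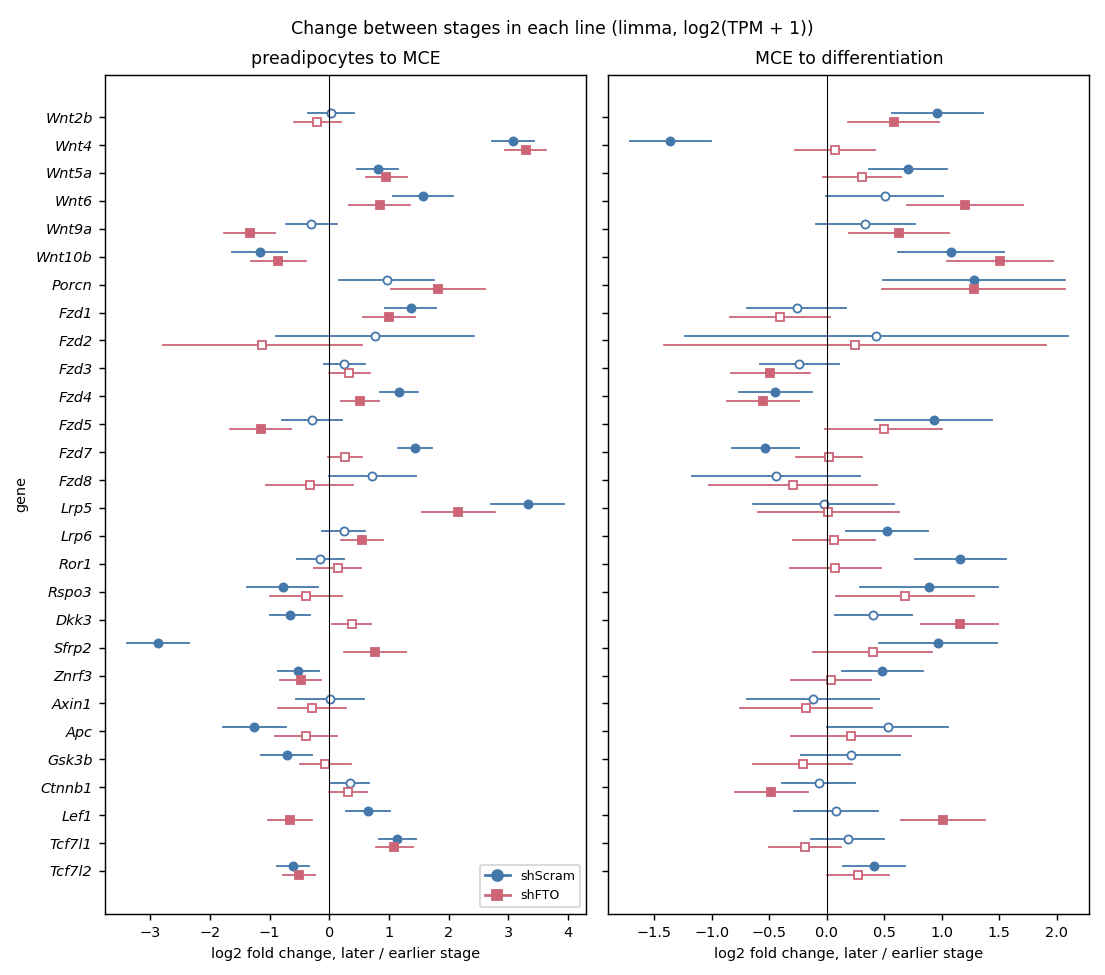
Log2 fold change between successive stages on the log2(TPM + 1) scale (x axis, with a different range in each panel) for the 28 tested members (y axis, ordered by role) in shScram (blue circles) and shFTO (red squares) cells, with lines for 95% confidence intervals. Filled symbols are called at an adjusted p under 0.05 (limma); Wnt4 and Lrp5 rise at the first step in both lines, and Sfrp2 falls in shScram cells alone.

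Lrp5 and Wnt4 rose in both lines at the first step. Lrp5 (ENSMUSG00000024913), on chromosome 19 from 3584828 to 3686564, went from 19.2 and 40.9 TPM to 298 and 284 TPM in shScram cells and from 41.4 and 41.4 TPM to 193 and 185 TPM in shFTO cells, log2 fold changes of 3.33 ± 0.27 and 2.16 ± 0.27 (limma adjusted p = 3.89e-05 and 0.000464). The first was 2.80 without replicate 1 of the preadipocytes. Wnt4 rose by 3.08 ± 0.15 in shScram and 3.29 ± 0.15 in shFTO cells, from below 1.2 TPM to at least 11.1 TPM in each MCE library, and by 3.17 in shScram cells without that replicate. Wnt4 then fell in shScram cells by 1.36 ± 0.15 at Diff (limma adjusted p = 0.000561) and was not called in shFTO cells, where it stayed between 11.1 and 13.3 TPM over the last 2 stages.

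The ligands known from the block of adipogenesis did not share a direction between stages. Wnt10b fell in both lines from preadipocytes to MCE, where 3 of 4 libraries listed it at 0, by 1.17 ± 0.20 in shScram (limma adjusted p = 0.00247) and by 0.85 ± 0.20 in shFTO cells (limma adjusted p = 0.0129), and rose again at Diff by 1.08 ± 0.20 and 1.50 ± 0.20. Its level at the last stage overlapped that of preadipocytes in shScram cells and lay above it in shFTO cells. Wnt6 rose at the first step by 1.57 ± 0.22 in shScram and 0.84 ± 0.22 in shFTO cells and at the second step by 1.20 ± 0.22 in shFTO cells. Wnt5a rose at the first step by 0.81 ± 0.15 and 0.96 ± 0.15, and at the second step by 0.70 in shScram cells, while it was not called there in shFTO cells. With replicate 1 of the preadipocytes left out, the first-step values of shScram cells were -1.46 for Wnt10b, 1.44 for Wnt6 and 0.64 for Wnt5a, all still called. Summed over the 10 ligands, levels went from 8.33 and 11.2 TPM in shScram against 12.8 and 13.8 TPM in shFTO preadipocytes to 34.9 and 33.4 TPM and 44.5 and 49.1 TPM at Diff. Porcn rose by 1.28 ± 0.35 at the second step in each line, calls made in 15 of the 20 alternatives, and by 1.83 ± 0.35 at the first step in shFTO cells. Wnt9a fell in shFTO cells at the first step by 1.34 ± 0.19 (limma adjusted p = 0.000953), to 0.319 and 0.402 TPM.

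In shScram cells 3 of the 7 Frizzled genes and 1 of the 3 co-receptors were called at the first step, beside 39.1% of all genes, and 3 and 2 at the second, beside 25.2%. In shFTO cells these were 3 and 2 at the first step, beside 28.7%, and 2 and 0 at the second, beside 26.7%. At the first step in shScram cells Fzd7 rose by 1.44 ± 0.13, Fzd1 by 1.36 ± 0.19 and Fzd4 by 1.17 ± 0.14, or 1.35, 1.02 and 1.25 without replicate 1 of the preadipocytes, and in shFTO cells Fzd1 rose by 1.00 ± 0.19 and Fzd4 by 0.51 ± 0.14. Fzd1 went from 21.1 and 34.3 TPM to 72.5 and 69.0 TPM in shScram cells and from 32.3 and 33.7 TPM to 68.6 and 65.3 TPM in shFTO cells, so that the lines lay near each other at MCE. Fzd5 fell in shFTO cells by 1.15 ± 0.22, from 7.49 and 7.07 TPM to 2.88 and 2.60 TPM. At the second step Fzd4 fell by 0.45 ± 0.14 in shScram cells (called in 8 of the 20 alternatives) and by 0.55 ± 0.14 in shFTO cells, Fzd7 fell by 0.54 ± 0.13 in shScram cells and Fzd3 by 0.49 ± 0.15 in shFTO cells (8 of 20). The calls of Fzd4 in shFTO cells, at either step, and of Fzd7 in shScram cells at the second step were each lost without any one of the libraries compared. Fzd5 rose by 0.93 ± 0.22 in shScram cells (15 of 20) and Lrp6 by 0.53 ± 0.16 (8 of 20). Ror1 rose in shScram cells at the second step by 1.16 ± 0.17, from 2.02 and 1.73 TPM to 5.61 and 5.25 TPM. Rspo3 fell and rose again by 0.78 ± 0.26 and 0.89 ± 0.26 in shScram cells, calls with limma adjusted p = 0.0438 and 0.0388 that were made in 3 and 6 of the 20 alternatives and in neither scaling. Without replicate 1 of the preadipocytes the first was -0.38 and not called, and without replicate 1 of shScram at Diff the second had a limma adjusted p of 0.161.

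Inhibitors and effectors went their own ways. Sfrp2 fell by 2.88 ± 0.23 in shScram cells at the first step (limma adjusted p = 3.23e-05) and rose by 0.76 ± 0.23 in shFTO cells (limma adjusted p = 0.0338), the latter called in 13 of the 20 alternatives. Dkk3 fell by 0.66 ± 0.15 in shScram cells at the first step and rose by 1.16 ± 0.15 in shFTO cells at the second. Apc fell in shScram cells by 1.26 ± 0.23 at the first step. Tcf7l1 rose by 1.14 ± 0.14 in shScram and 1.09 ± 0.14 in shFTO cells at the first step, from between 27.1 and 37.8 TPM to between 68.9 and 84.4 TPM. Tcf7l2 fell by 0.61 ± 0.12 and 0.51 ± 0.12 at the same step, the second called in 14 of the 20 alternatives. Lef1 rose by 0.65 ± 0.16 in shScram cells and fell by 0.66 ± 0.16 in shFTO cells at the first step, then rose by 1.01 ± 0.16 in shFTO cells at the second. The first-step values of shScram cells without replicate 1 of the preadipocytes were -3.21 for Sfrp2, -0.73 for Dkk3, -0.95 for Apc, 0.95 for Tcf7l1, -0.64 for Tcf7l2 and 0.66 for Lef1, all still called. Ctnnb1 fell at the second step in shFTO cells by 0.48 ± 0.14 (limma adjusted p = 0.0331), a call made in 9 of the 20 alternatives and lost with no filter, and was not called in shScram cells. The proliferation marker Top2a moved with the MCE stage, at 413 and 380 TPM in shScram against 305 and 293 TPM in shFTO cells, while it held 66.3 to 110 TPM in preadipocytes and 71.1 to 107 TPM at Diff. The 5 proliferation markers, with Top2a the most abundant, summed to 769 and 713 TPM in shScram against 588 and 562 TPM in shFTO cells at MCE, to between 196 and 290 TPM in preadipocytes and to between 145 and 257 TPM at Diff; their part in the changes at that stage was not tested.

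The difference between the lines in these stage changes was itself tested. At the first step it was called for 4 of the 28 members, 2 higher and 2 lower in shFTO cells, beside 5.11% of all genes (2.52% higher, 2.59% lower), and at the second step for 1, higher, beside 2.49% (1.47% higher, 1.01% lower). The change of Sfrp2 at the first step was 3.64 ± 0.32 higher on the log2 scale in shFTO than in shScram cells (limma adjusted p = 0.000842) and that of Dkk3 was 1.03 ± 0.21 higher (limma adjusted p = 0.0264). The change of Lef1 was 1.30 ± 0.23 lower as a log2 value (limma adjusted p = 0.0155) and that of Fzd7 was 1.17 ± 0.18 lower (limma adjusted p = 0.00879). At the second step the change of Wnt4 was 1.43 ± 0.22 higher in shFTO cells (limma adjusted p = 0.0121). The calls of Dkk3, Lef1 and Wnt4 were made in 11, 15 and 13 of the 20 alternatives. Without replicate 1 of the shScram preadipocytes 7 and 8 members were called, and without replicate 2 of that group 16 and 8, with these 5 among them each time. For Rspo3 no such difference was called at either step, and for Porcn and Ctnnb1 none was called in the fit as described above. Under the alternatives Porcn was called at the first step with the GC correction and without replicate 1 of the shScram preadipocytes, and Ctnnb1 at the second step without either library of that group and in the fit on only the libraries compared.

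The rest of the pathway was read from a list of 82 further genes, of which 54 passed the filter. Between the lines, 24 were called in preadipocytes, 16 higher and 8 lower in shFTO cells, 18 at MCE, 10 higher and 8 lower, and 18 at Diff, 9 in each direction. In the fit on all 12 libraries their shares lay above the 28.2%, 17.8% and 21.2% of all genes, and no test of that difference was made. This list too was made with earlier results of these data known. No share of all genes is given for the fit that follows. Without replicate 1 of the shScram preadipocytes 25, 31 and 34 were called, of which 19, 18 and 18 were shared. Ccn5, a secreted matricellular protein first found as induced by Wnt1, had the highest log2 fold change of these 54 at all 3 stages with all libraries in the fit, at 572 and 576 TPM against 27.6 and 94.4 TPM in preadipocytes, 689 and 672 TPM against 113 and 117 TPM at MCE, and 283 and 286 TPM against 20.2 and 16.5 TPM at Diff. These are log2 fold changes of 3.46, 2.56 and 3.89, the first 2.59 without that replicate, where Lgr6 was higher. Its relative Ccn4 was higher by 2.30 at MCE, at 36.4 and 39.2 TPM against 7.28 and 6.53 TPM. The R-spondin receptor Lgr6 was higher by 2.93 in preadipocytes, at 6.68 and 7.35 TPM against 0.0189 and 0.0765 TPM, and Igfbp4, an IGF-binding protein that also binds Frizzled and Lrp6, by 2.17, or 2.89 and 1.63 without it. Fosl1, a subunit of AP-1, was higher by 1.49 at MCE and 1.51 at Diff, and Vangl2, a planar polarity protein, by 1.08 at Diff, a call made in 15 of the 20 alternatives.

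Called at all 3 stages were 3 of these 54 genes with higher values in shFTO cells, Ccn5, Vangl2 and Csnk1e, beside 3.41% of all genes. The preadipocyte call of Vangl2 was made in 9 of the 20 alternatives and lost without replicate 1 of shScram. Its log2 fold change of 0.98 was 0.49 there, and that of Csnk1e went from 0.82 to 0.49. The calls of Csnk1e at MCE and Diff were made in 9 and 15 of the 20 alternatives. With lower values there were 7, Camk2d, Ccnd1, Wls, Daam2, Tle4, Vangl1 and Cd44, beside 1.99%. Camk2d, a kinase of the calcium branch, had log2 fold changes of -1.10, -1.25 and -1.03, and Ccnd1, the cyclin D1 gene often read as a β-catenin target, had -0.74, -1.55 and -1.24. Ccnd1 stood at 169 and 239 TPM in shScram against 117 and 123 TPM in shFTO preadipocytes, at 185 and 168 TPM against 61.2 and 58.0 TPM at MCE, and at 197 and 187 TPM against 79.1 and 82.7 TPM at Diff. Wls, the carrier that takes Wnt ligands to the cell surface and so acts after Porcn, had log2 fold changes of -1.02, -0.69 and -0.57, at 480 and 360 TPM against 196 and 213 TPM in preadipocytes, with the call at Diff made in 13 of the 20 alternatives. Without replicate 1 of the shScram preadipocytes the values there were -0.91 for Camk2d, -0.99 for Ccnd1 and -0.81 for Wls. Usp34, a deubiquitinase of Axin, was lower by 0.80 in preadipocytes, a call lost without that replicate (-0.44, limma adjusted p = 0.0706) and made in 8 of the 20 alternatives. Daam2, a formin of the polarity branch, had log2 fold changes of -0.53, -1.17 and -0.73, the first called in 11 of the 20 alternatives. Tle4, a co-repressor of Tcf factors, had -0.46, -0.91 and -1.13, the first called in 4 of the 20 and lost without replicate 1 of the shScram preadipocytes. Vangl1 of the polarity branch had -0.61, -0.87 and -0.92, and Cd44 had -0.60, -0.56 and -0.59. In preadipocytes without replicate 1 of shScram these were -0.69 for Daam2, -0.37 for Tle4, -0.74 for Vangl1 and -0.54 for Cd44. Vangl1, Cd44 and Csnk1e were named after their values were seen. Of the 14 genes listed as responsive to the pathway, 11 were tested. Of these, 8 were called in preadipocytes, 6 higher and 2 lower in shFTO cells, 6 at MCE, 3 in each direction, and 6 at Diff, 3 in each direction, beside 28.2%, 17.8% and 21.2% of all genes. Myc, among the 6 higher in preadipocytes, was called in 3 of the 20 alternatives. Its log2 fold change of 0.53 was 0.24 without replicate 1 of shScram, where the call was lost. Ccn5 was higher and Ccnd1 and the adhesion receptor gene Cd44 were lower at all 3 stages.

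Between stages, 24 of these 54 genes were called in shScram cells and 16 in shFTO cells at the first step, and 11 and 12 at the second. The shares of all genes called were 39.1% and 28.7% at the first step and 25.2% and 26.7% at the second. In this fit on all 12 libraries the 54 genes lay near the background at the first step and somewhat below it at the second. No share of all genes is given for the fit that follows, so its counts cannot be placed beside a background. With replicate 1 of the shScram preadipocytes left out, 33 and 30 were called at the first step and 27 and 28 at the second. At the first step Igfbp4 rose by 3.53 in shScram and 2.50 in shFTO cells, Msx1, a homeobox gene, by 2.90 and 0.97, Jun, a subunit of AP-1, by 2.40 and 1.11, Fosl1 by 1.95 and 3.09, and Lgr4, an R-spondin receptor, by 1.25 and 1.79, in the same order. The shFTO calls of Msx1 and Jun were made in 8 and 9 of the 20 alternatives. Ccn4 fell by 2.15 and 1.50 in shScram and shFTO cells, and Gpc4, a glypican, by 1.37 and 1.65. The shScram values without replicate 1 of the preadipocytes were 2.98 for Igfbp4, 2.36 for Msx1, 1.74 for Jun, 1.70 for Fosl1, 1.29 for Lgr4, -2.13 for Ccn4 and -1.38 for Gpc4, all still called. Lgr6 fell in shFTO cells by 2.50, and at MCE it held 0.424 and 0.408 TPM in shFTO and 0.0955 and 0.119 TPM in shScram cells. The difference between the lines at the first step was called for 4 of the 54, beside 5.11% of all genes. It was higher in shFTO cells for Daam1 and lower for Msx1 and Tle1, calls made in 7, 8 and 8 of the 20 alternatives. For Lgr6 it was -2.58, or -2.54 without replicate 1 of the shScram preadipocytes. At the second step Ccn5 fell by 2.58 in shScram cells and Fosl1 by 2.09 in shScram and 2.07 in shFTO cells, while Ccn4 rose by 1.27 in shScram cells and fell by 0.83 in shFTO cells. That difference between the lines was called, at -2.10 on the log2 scale with limma adjusted p = 0.0013, the sole such call among the 54 at that step, where 9 were called without replicate 1 of the shScram preadipocytes. Csnk1g1, a casein kinase gene, fell by 1.18 in shScram cells at the first step, or by 0.93 without that replicate, and rose by 0.81 in shFTO cells at the second (called in 14 of the 20 alternatives), and Tle2, another co-repressor, rose by 1.47 in shFTO cells at the second.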

How the data were processed

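The libraries hold fragmented total RNA. Per the study's methods, the authors used Trim Galore 0.6.5 for trimming, HISAT2 2.1.0 for alignment to the GRCm38 genome and StringTie 2.1.4 with Ensembl 102 genes, and deposited 1 TPM value per gene and library; their own DEGs came from DESeq2 1.30.1 on counts that were not used here. TPM keeps no depth; 20853 to 24018 genes were above 0 per library. From these values log2(TPM + 1) was fitted with limma 3.58.1 in R 4.3.3 (a mean per group, all 12 libraries, eBayes with trend), two-sided, with 9 contrasts. Coordinates and GC content came from GENCODE M21. Other steps used Python 3.11.15.

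The members and lists were chosen with earlier results of these data known. Named are the members best known from adipogenesis, up to 8 called members per comparison with a log2 fold change of at least 1 in size, and up to 3 called genes at each end of the list of other pathway genes. Alternatives were another pseudocount, no filter, 2 scalings, other spreads, the study's thresholds (fold over 2, unadjusted p under 0.05), a GC correction, a replicate block and each library left out.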

Additional observations from a re-analysis of the deposited data

Results flagged for a closer look

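For 5 members the stage change differed between the lines by a test of the difference itself (limma, adjusted over all 15968 genes tested). From preadipocytes to MCE the log2 change in shFTO minus that in shScram cells was 3.64 for Sfrp2, 1.03 for Dkk3, -1.30 for Lef1 and -1.17 for Fzd7. From MCE to Diff it was 1.43 for Wnt4. Over the alternatives tried the Sfrp2 value lay between 3.31 and 4.06 and was called in all 20 of those that use the adjusted threshold. Fzd7 was called in 16 of these 20, Lef1 in 15, Wnt4 in 13 and Dkk3 in 11. All kept their sign, which the alternatives that do not move the fold change could not alter. The first step of shScram cells rests on the preadipocyte pair that stood apart; without its replicate 1 the 4 values were 3.97, 1.11, -1.32 and -1.09 and remained called.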

How the results depend on the processing

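No called member changed sign: of 86 calls over the 9 comparisons, 0 reversed under any alternative, and 26 were called in all 20 alternatives that keep the adjusted threshold. For each comparison many of these alternatives leave the fold change as it was, as described above, so its sign could not turn there. Counts of called members are given here in the order of preadipocytes, MCE and Diff for shFTO against shScram. Against 11, 6 and 7 calls, a fit on only the libraries compared gave 0, 12 and 15. At Diff no filter gave 11, the GC correction 13 and the study's thresholds 4. For the stage changes, only the libraries compared gave 3 in shScram cells at the first step (against 17) and 19 in shFTO cells at the second (against 10). At the second step in shScram cells (against 14), no filter gave 8 and quantile normalization 8. The study's thresholds gave 10 and 4 at the successive steps in shScram cells and 6 and 5 in shFTO cells (16 and 10). For the difference between the lines, at the first step (against 4) only the libraries compared gave 1, the GC correction 7 and the study's thresholds 7, and at the second step (against 1) pseudocount 0.1 gave 0, only the libraries compared 8, no trend 2, the GC correction 4 and the study's thresholds 2. The causes were not tested, beyond the shared spread described above. Median-ratio scaling kept 75 of the 86 calls, quantile normalization 70 and no filter 64.

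With each library left out in turn, the counts ran from 6 to 19 in preadipocytes, 3 to 11 at MCE and 4 to 15 at Diff. They ran from 12 to 22 and 4 to 19 for the steps of shScram cells, 8 to 21 and 4 to 16 for those of shFTO cells, and 1 to 16 and 0 to 8 for the difference between the lines. The highest counts came without a library of the shScram preadipocytes. A lone library left in a group is assumed to vary like the others.

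Correlations across genes of the deviations of same-numbered libraries lay between -0.2 and 0.172. With 2 libraries per group, this cannot exclude that same-numbered libraries shared a culture or a preparation. With the replicate block the counts were 11, 6 and 7 between the lines, 17 and 10 in shScram cells, 15 and 8 in shFTO cells, and 4 and 1 for the difference. TPM gives no depth, so for genes near 0 neither a floor nor an interval can be given, and 2 libraries per group limit every estimate of spread.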
